A study of Solanum lycopersicum with 84 samples.

Results

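Of 34075 tomato genes counted, 185 were close to silent in shoots and were higher in roots that had received nitrate than in roots kept without nitrogen. The plants were tomato (*Solanum lycopersicum*, cultivar M82), grown in hydroponics, starved of nitrogen for 4 days from an age of 22 days, and then given nitrate (+N) or fresh nitrogen-free medium (−N) for 6 hours. Roots and shoots were harvested separately, and mRNA was sequenced from 3 pools of 4 plants for each of +N roots, −N roots, +N shoots and −N shoots. All groups carried the same genotype and had passed through the same starvation, so −N is continued starvation rather than a nitrogen-replete control. Every library came from a whole organ, which holds many cell types.

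The genes were chosen by their levels in these libraries. Levels are given in CPM, a gene's reads divided by the library total and multiplied by 1000000, with no correction for gene length. A gene was taken when its mean was under 0.5 CPM in +N and in −N shoots, when its mean in +N roots was at least 2 CPM and at least 2 times that in −N roots, and when all 3 +N root libraries lay above all 3 −N root libraries. These limits were met by 187 genes. The rule leaves out 4 named genes, 2 of which met the limits, and this gave 185. The difference between +N and −N roots and the low level in shoots are therefore what selected the genes, and both are given below as description without a test. The members just inside the limit on the ratio, Solyc08g080930.1, Solyc07g009030.3 and Solyc03g118930.2, stood at 2.02, 2.03 and 2.03, and the genes just outside it, Solyc07g009020.2, Solyc06g065850.3 and Solyc12g088000.2, at 2.00, 1.99 and 1.98. For the +N root level they were Solyc02g062817.1, Solyc10g005190.1 and Solyc04g071690.4 at 2.02, 2.11 and 2.16 CPM inside, and Solyc07g150144.1, Solyc07g009405.1 and Solyc06g066560.3 at 1.98, 1.97 and 1.95 CPM outside. For the higher of the shoot means they were Solyc02g093670.3, Solyc05g055860.4 and Solyc02g094860.3 at 0.499, 0.484 and 0.471 CPM inside, and Solyc09g098385.1, Solyc04g040090.4 and Solyc10g076400.2 at 0.514, 0.520 and 0.538 CPM outside.

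As background, roots take up nitrate and sense it directly, and nitrate resupply after starvation alters the transcription of transporters, assimilation enzymes and regulators within hours. Roots also carry cell types that shoots lack, among them root hairs, which are tubular outgrowths of epidermal cells that enlarge the absorbing surface, and the endodermis, a cell layer around the vascular tissue. Genes used only in such cells have little or no transcript in leaves and stems. Functions stated below for Arabidopsis relatives are background for that species. Tomato gene descriptions and, where there is one, the closest Arabidopsis gene come from the annotation lists of the study, which covered all members but 1.

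The libraries held 17472760 to 21901432 counted reads. A set of 10 photosynthesis genes that mark green tissue summed to 12.6 to 16.9 CPM in +N roots and 8.21 to 12.7 CPM in −N roots, against 7339 to 7924 CPM in +N shoots and 4044 to 4731 CPM in −N shoots, so the organ labels fit the libraries. Of the 4 root cell markers, the 3 root hair genes are themselves members, and Solyc02g067190.4, the relative of the Casparian strip gene CASP1 of the endodermis, had no read in any +N root library, against 2.44, 2.30 and 1.40 CPM in −N roots. A pair of libraries stood apart for these genes. Replicate 1 of the −N roots was the lowest of the 3 −N libraries for 93 of 185 members, against 46 members each for replicates 2 and 3. Among 19537 genes with at least 50 reads in each root group, it was the lowest for 29.7%, against 30.9% and 39.4% for replicates 2 and 3. Replicate 3 of the −N shoots was the only shoot library with a read for 14 members, against 1 to 6 members for each other shoot library. Without the −N root library 180 genes met the limits, and without the −N shoot library 182 did.

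Together, the members summed to 5026 ± 185 CPM in +N roots and 1466 ± 195 CPM in −N roots (SD, n = 3 each), against 18.8 ± 1.13 CPM in +N shoots and 17.53 ± 1.95 CPM in −N shoots. The ratio of +N to −N roots had a median of 3.40 over the members and a range from 2.02 to 83.2. It was under 3 in 79 genes, from 3 to 5 in 51, from 5 to 10 in 32, and 10 or more in 23. Levels in +N roots ran from 2.02 to 282 CPM, with 49 genes under 5 CPM and 11 at 100 CPM or above. The coefficient of variation between replicates had a median over the members of 11.6% in +N roots and 24.0% in −N roots. The choice of genes fixes fewer reads in −N roots, so nothing is read from that difference. On the scale of library totals the median log2 difference of all 21049 genes tested in roots was -0.18, and against TMM scaling (trimmed mean of M-values, which sets the bulk of genes to no change) it moved by -0.16. All member ratios are thus slightly smaller here than on the TMM scale.

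**Figure D1:**
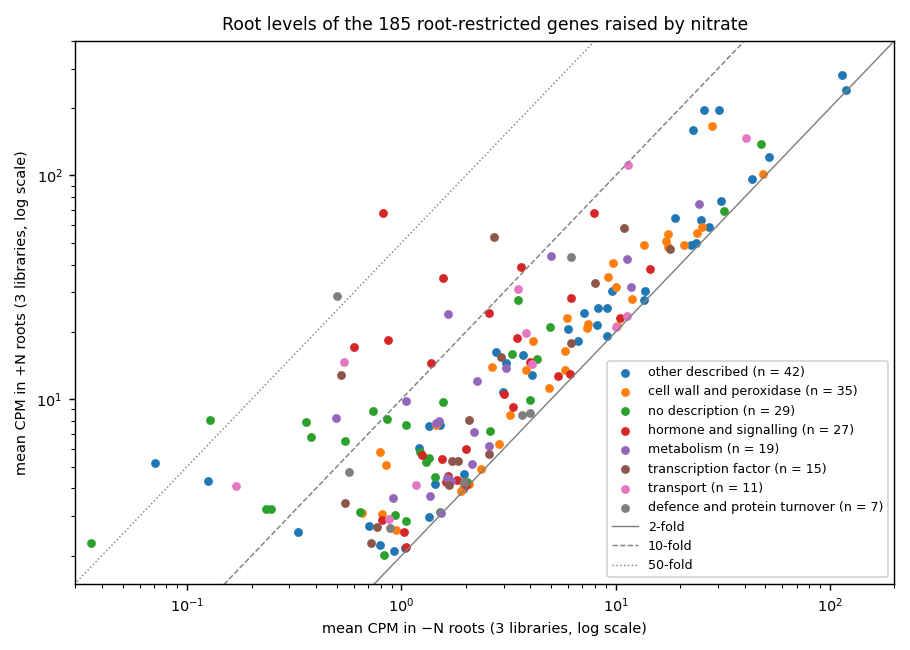
Mean CPM of each of the 185 members in +N roots (vertical axis) and −N roots (horizontal axis), both on log scales, with 1 point per gene coloured by description group and lines at 2-, 10- and 50-fold. The members run from 2.02 to 282 CPM in +N roots, and most lie between the 2-fold line, which the choice of genes sets as the lower edge, and the 10-fold line.

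By description, 35 members were cell wall proteins or peroxidases, 27 hormone and signalling proteins, 19 metabolic enzymes, 15 transcription factors, 11 transporters, 7 defence or protein turnover genes and 42 other described genes, and 29 had no functional description. The groups follow words in the descriptions, which put the glycolytic enzyme 6-phosphofructokinase, Solyc08g066100.3, among the signalling proteins by the word kinase. Glutaredoxins and GLUTAMINE DUMPER genes were looked for as groups of their own, and no member had either description. The median ratio was 2.84 in the cell wall group, 3.51 in the signalling group, 3.74 in metabolism, 3.47 among transcription factors, 3.62 among transporters, 3.03 in defence, 2.85 among other described genes and 4.75 among those without description. In a fit across all genes in roots (edgeR quasi-likelihood test, adjusted p under 0.015 and at least 2-fold), 185 of 185 members were called higher in +N, where 6.23% of all genes tested were. The choice of genes used that same contrast, so nothing follows from this count.

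To see the size of the difference in libraries that had not chosen the genes, the rule was applied to 2 of the 3 replicate numbers and read in the third. Each ratio sets a +N library against the −N library of the same number, and same-numbered libraries did not deviate together. With replicate number 1 left out, 185 genes were chosen, and their +N to −N ratio in replicate 1 had a median of 3.92, with 158 genes at 2 or more. That ratio uses replicate 1 of the −N roots, which was the lowest −N library for 93 of the 185 members. Replicate 2 gave a median of 3.24 over 192 genes, with 157 at 2 or more, and replicate 3 gave 3.12 over 185 genes, with 147 at 2 or more. Over all genes of at least 2 CPM in the other +N libraries, 5.60%, 5.24% and 5.01% were 2-fold higher in replicates 1, 2 and 3. The direction was the same for all but 2 of the genes chosen without replicate 1 and for all genes chosen without replicate 2 or 3.

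The cell wall group was the largest of those with a named function. Plant cells grow when their walls loosen and new wall polymers are laid down, and root hairs depend on this at their tip. The most abundant of the group was Solyc08g077910.3, expansin-like B1, of the family of wall-loosening proteins, with 155, 190.0 and 154 CPM in +N roots, against 19.7, 28.9 and 35.5 CPM in −N roots. All 4 expansin-type members were at least 3.79-fold higher in +N, and together they summed to 189 ± 20.4 CPM in +N roots and 32.3 ± 8.02 CPM in −N roots (SD, n = 3 each).

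Several members were relatives of Arabidopsis genes that mark root hairs. The 9 so grouped were picked after their values had been seen and are described only. All are members, so the choice of genes fixed their direction. Solyc08g007780.3 and Solyc08g080060.4 both match EXPA7, an expansin of root hairs. The first had 6.24, 6.26 and 4.98 CPM in +N roots, against 0.569, 1.22 and 0.590 CPM in −N roots, and the second 14.04, 13.7 and 14.02 CPM, against 2.39, 2.74 and 2.79 CPM. Solyc01g107140.3 matches a bHLH factor of the family that directs root hair growth, and had 4.63, 6.15 and 5.09 CPM in +N roots, against 1.88, 2.16 and 1.13 CPM in −N roots. The endoglucanase Solyc02g014220.3, which matches GH9C1, was the highest of the group at 53.1, 55.2 and 57.7 CPM in +N roots, against 23.7, 25.9 and 22.1 CPM in −N roots. The remaining members of the group were Solyc10g005190.1 (root hair specific 4), the peroxidase Solyc01g009400.3 (RHS18), the galactosyltransferase Solyc08g080930.1 (RHS8), and the neighbouring Solyc12g007250.1 and Solyc12g007270.3, which both match the xyloglucan-remodelling enzyme XTH26. Their ratios ran from 2.02 to 2.83. The 9 genes summed to 111, 112 and 114 CPM in +N roots, against 40.8, 47.5 and 38.0 CPM in −N roots, and 5 of them had no read in any shoot library. In whole roots, more transcript per root hair cell and a larger share of root hair cells cannot be told apart, and this holds for every result below.

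Extensins, hydroxyproline-rich glycoproteins that form a network in the wall, were the most numerous family of the group, with 13 members. Their ratios ran from 2.09 to 5.28. The highest was Solyc01g097690.2 (Dif10 type), with 54.9, 57.9 and 51.5 CPM in +N roots, against 15.98, 18.9 and 18.0 CPM in −N roots. Solyc01g107220.2 (extensin-2-like) had 41.2, 40.5 and 40.4 CPM in +N roots, against 8.07, 11.1 and 9.98 CPM in −N roots. In both genes the replicates lay close together within each group. Of the 13, 7 carry the description Ext1 and lie in runs of 3 and 4 on chromosome 12, and such tandem copies with repetitive coding sequence can share reads, so how the reads divide among them is uncertain. The sum over all 13 was 265 ± 14.4 CPM in +N roots and 91.1 ± 15.8 CPM in −N roots (SD, n = 3 each). It does not depend on how counted reads divide among the 13. How reads that match several copies were counted is not given in the sources used here, and the sum can depend on it.

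Class III peroxidases, secreted enzymes that cross-link or loosen wall polymers with hydrogen peroxide, gave 10 members, with ratios from 2.06 to 4.40. Solyc02g090470.4 was the most abundant with 85.8, 113 and 106 CPM in +N roots, against 48.1, 45.4 and 53.0 CPM in −N roots. Solyc12g017870.2 had 64.2, 58.6 and 54.6 CPM in +N roots, against 21.4, 28.1 and 26.1 CPM in −N roots. These ratios were modest, and the peroxidases as a sum stood at 373 ± 19.9 CPM in +N roots and 147 ± 6.39 CPM in −N roots (SD, n = 3 each).

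The signalling group held the largest ratio of all. Solyc04g055150.1, a protein with a C2 domain of the kind that binds calcium and lipids, had 69.1, 63.7 and 71.7 CPM in +N roots, against 0.967, 0.686 and 0.805 CPM in −N roots, an 83.2-fold difference. Its neighbours Solyc04g055140.1 and Solyc04g055130.1 share the description, and stood at 35.0 and 14.5 CPM on average in +N roots, against 1.56 and 1.37 CPM in −N roots. Solyc03g031630.3, an EF-hand calcium-binding protein, had 15.9, 21.0 and 14.5 CPM in +N roots, against 0.284, 0.343 and 1.18 CPM in −N roots. The cysteine-rich receptor-like kinase Solyc02g080060.1 had 38.4, 41.9 and 37.1 CPM in +N roots, against 4.09, 3.58 and 3.17 CPM in −N roots. Proteins with RING, U-box or F-box domains, which select targets for ubiquitin-dependent degradation, numbered 9. Among them the RING/U-box gene Solyc01g095850.1 averaged 18.5 CPM in +N roots and 0.862 CPM in −N roots, while its near neighbour Solyc01g095830.3, of the same description, averaged 23.0 and 10.5 CPM.

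Cytokinins are hormones made in roots after nitrate supply and carried to the shoot, where they promote growth. Both Solyc02g085880.3 and Solyc02g094860.3 match CYP735A1, the cytochrome P450 that converts precursor cytokinins to the *trans*-zeatin form, and Solyc08g061920.3 is a cytokinin oxidase/dehydrogenase, which degrades cytokinins. The first had 7.02, 9.61 and 8.13 CPM in +N roots, against 1.02, 0.294 and 0.161 CPM in −N roots. The second had 10.1, 8.67 and 10.6 CPM in +N roots, against 1.54, 0.490 and 1.13 CPM in −N roots. The oxidase had 27.7, 29.6 and 27.4 CPM in +N roots, against 4.49, 8.33 and 5.74 CPM in −N roots. The choice of genes fixed the direction for the synthesis-type and the degradation-type genes alike, so nothing is read from both being higher in +N roots.

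Of the 15 genes grouped as transcription factors, the basic leucine zipper Solyc04g005170.1 had 55.4, 51.4 and 51.6 CPM in +N roots, against 1.93, 3.43 and 2.74 CPM in −N roots, a ratio of 19.6. Solyc05g050460.1, which is described as a CCCH zinc finger protein but matches an Arabidopsis gene of an RNA-binding family, had 57.1, 56.2 and 62.3 CPM, against 11.5, 11.5 and 10.03 CPM, and the WRKY factor Solyc03g113120.4 had 31.9, 35.3 and 32.5 CPM, against 6.94, 8.82 and 8.26 CPM. The groups were far apart in each of these genes. A pair of low-level members match Arabidopsis regulators of root growth. Solyc03g096300.3, which matches WOX5, a regulator of the stem cell niche at the root tip, had 2.65, 2.20 and 2.00 CPM in +N roots, against 0.341, 0.686 and 1.13 CPM in −N roots. Solyc09g066260.4, which matches LBD16, a factor of lateral root initiation, had 3.02, 3.13 and 1.89 CPM in +N roots, against 1.02, 0.490 and 0.805 CPM in −N roots.

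Of the 11 transporters, 7 had no read in any shoot library. Solyc04g011340.3, a WAT1-related membrane protein, had 139.9, 162 and 138 CPM in +N roots, against 18.6, 42.3 and 60.5 CPM in −N roots. The carrier Solyc05g053860.4, described as organic cation/carnitine transporter 3, had 132, 103 and 101 CPM in +N roots, against 4.04, 13.8 and 16.4 CPM in −N roots. Relative to the mean of their group, the −N libraries differed among themselves more than the +N libraries did in both genes. Solyc08g080310.2, a DETOXIFICATION (MATE) efflux carrier, had 27.2, 33.7 and 32.2 CPM, against 2.96, 3.53 and 3.97 CPM, and the ABC transporter Solyc06g009280.1 had 23.6, 22.8 and 24.2 CPM, against 12.3, 12.2 and 9.55 CPM. The WAT1-related Solyc04g025750.3 differed 27.3-fold, with 12.0, 19.0 and 13.2 CPM in +N roots, against 0.284, 1.18 and 0.161 CPM in −N roots.

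Iron uptake genes formed a small set of 3, also grouped after their values were seen. IRT1 proteins bring ferrous iron into root epidermal cells, and bHLH038 of Arabidopsis is one of the factors that switch such genes on. The neighbours Solyc02g069200.3 (iron-regulated transporter 1) and Solyc02g069190.4 (iron-regulated transporter 2) had 5.41, 4.12 and 2.92 CPM and 4.0, 4.28 and 3.95 CPM in +N roots, against 1.08, 1.42 and 1.02 CPM and 0.398, 0 and 0.107 CPM in −N roots. Solyc10g079650.2, which matches bHLH038, had 2.81, 4.06 and 3.43 CPM in +N roots, against 1.02, 0.294 and 0.322 CPM in −N roots. For Solyc02g069190.4 the closest Arabidopsis gene given was ZIP10, and its −N roots held 9 reads in all. None of the 3 had a read in a shoot library, and all were low in roots.

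Metabolic members were led by the aspartate aminotransferase Solyc10g075170.3, an enzyme that moves amino groups between glutamate and aspartate, with 87.2, 75.6 and 61.5 CPM in +N roots, against 15.7, 26.7 and 31.1 CPM in −N roots. The glutathione S-transferase Solyc12g097080.2 had 42.6, 40.0 and 48.5 CPM, against 4.89, 5.14 and 4.99 CPM. The glycosyltransferase Solyc07g006800.1 and the oxidoreductase Solyc03g093270.3 averaged 42.5 and 31.7 CPM in +N roots, against 11.4 and 11.8 CPM in −N roots. Among defence genes, the disease resistance protein Solyc04g009690.2 averaged 43.2 CPM in +N roots and 6.20 CPM in −N roots. Miraculin Solyc06g072210.1, of the Kunitz family of protease inhibitors, had 25.0, 33.7 and 28.3 CPM in +N roots, against 0, 0.490 and 1.02 CPM in −N roots. Inhibitors Solyc07g054720.2 and Solyc03g019690.1 differed 2.17- and 2.34-fold.

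The most abundant members of all had varied descriptions. Solyc12g006680.2, an early nodulin-93, had 303, 271 and 272 CPM in +N roots, against 79.6, 125 and 137 CPM in −N roots. The defensin-like Solyc07g009030.3 had 231, 257 and 236 CPM, against 130.5, 109 and 118 CPM, close to the limit of 2-fold. Its relative Solyc07g009020.2, just outside that limit at 2.00, was at 98.3, 110.1 and 99.4 CPM in +N roots and 49.4, 53.9 and 50.9 CPM in −N roots. The rhodanese-like Solyc02g083730.4 had 194, 219 and 175 CPM, against 18.4, 22.3 and 37.1 CPM, and Solyc10g050980.1, without description, had 143, 150.2 and 119 CPM, against 26.95, 55.8 and 60.0 CPM. Others without description were Solyc05g054790.1, Solyc02g067605.1 and Solyc07g056090.1, at 69.2, 27.8 and 21.0 CPM on average in +N roots, against 32.2, 3.49 and 4.91 CPM in −N roots.

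Some of the largest ratios rested on very few reads in −N roots. The undescribed Solyc09g042705.1 had 1.40, 2.53 and 2.92 CPM in +N roots, against 0, 0 and 0.107 CPM in −N roots. Its ratio of 63.8 rests on 2 reads in −N, and its exact 95% interval, for counting error only, ran from 17.3 to 534. For Solyc06g083160.1, a DUF506 protein with 4.94, 5.60 and 4.98 CPM in +N roots and 4 reads in −N roots, the ratio was 73.3 (28.3 to 271). Solyc02g076630.1, undescribed, with 6.91, 7.25 and 10.1 CPM and 7 reads in −N roots, had 63.6 (31.3 to 163), and the chlorophyllase-2 Solyc09g082600.3, with 5.15, 4.39 and 3.43 CPM and 7 reads in −N roots, had 34.4 (16.8 to 88.5). How many times higher the +N level was is thus poorly determined for these genes.

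**Figure D2:**
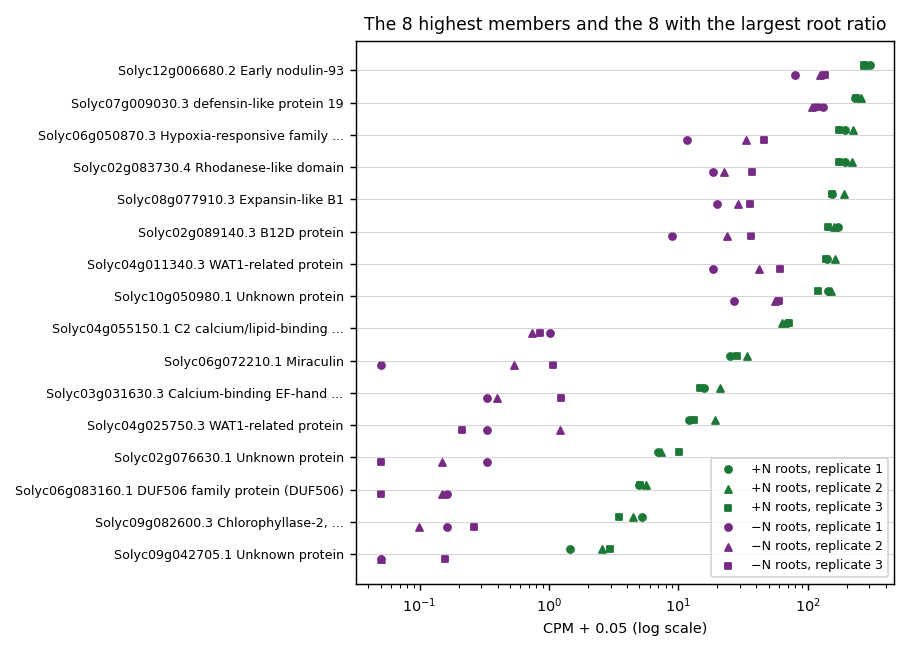
CPM plus 0.05, on a log scale, in each of the 3 +N root libraries (green) and the 3 −N root libraries (purple) for the 8 members highest in +N roots and the 8 with the largest ratio, ordered from the highest level down. No +N point overlaps a −N point, as the choice of genes requires, and in 7 of the 8 highest members replicate 1 of the −N roots (purple circle) is the lowest library.

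Replicate 1 of the −N roots was low for one set of members. Among the 152 members with at least 50 reads over the −N roots, 19 (12.5%) had under 50% of the mean of replicates 2 and 3 in replicate 1. Replicates 2 and 3 were low by the same measure for 4 (2.63%) and 1 (0.658%). Over all 19537 genes with at least 50 reads in each root group, the shares for replicates 1, 2 and 3 were 0.527%, 0.261% and 0.322%. The choice of genes used these −N values and favours low ones, so the members' shares are a description only. The 19 were led by Solyc06g050870.3, of a hypoxia-responsive family, with 194, 222 and 174 CPM in +N roots, against 11.7, 33.0 and 46.1 CPM in −N roots, and by the B12D protein Solyc02g089140.3, with 172, 161 and 145 CPM, against 8.81, 23.6 and 36.6 CPM. The calmodulin-like Solyc11g071740.2, which matches CML38, had 87.9, 64.0 and 53.0 CPM, against 3.58, 8.77 and 11.5 CPM. CML38 and LBD41 are genes that Arabidopsis induces when oxygen is scarce. Solyc05g009320.4, which matches LBD41, did not share the low replicate 1, with 49.8, 51.1 and 40.3 CPM in +N roots, against 19.3, 17.8 and 16.7 CPM in −N roots. These 4 genes were grouped after their values were seen, and the choice of genes fixed their direction. They summed to 503, 498 and 412 CPM in +N roots, against 43.4, 83.1 and 111 CPM in −N roots.

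The same low library was seen in the transporters Solyc04g011340.3 and Solyc05g053860.4 above, in the phosphate transporter Solyc03g005555.1, in the early nodulin-93 Solyc12g006560.3 and in the wound-responsive Solyc07g054750.1. Leaving replicate 1 out lowered their ratios. For the hypoxia-responsive Solyc06g050870.3 the ratio became 4.97 in place of 6.50, for B12D 5.29 in place of 6.92, and for the carnitine transporter 7.42 in place of 9.81. Over all members the median ratio became 3.22 in place of 3.40, and 14 members, 3 of the 19 among them, came under 2-fold. What set this library apart was not tested.

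**Figure D3:**
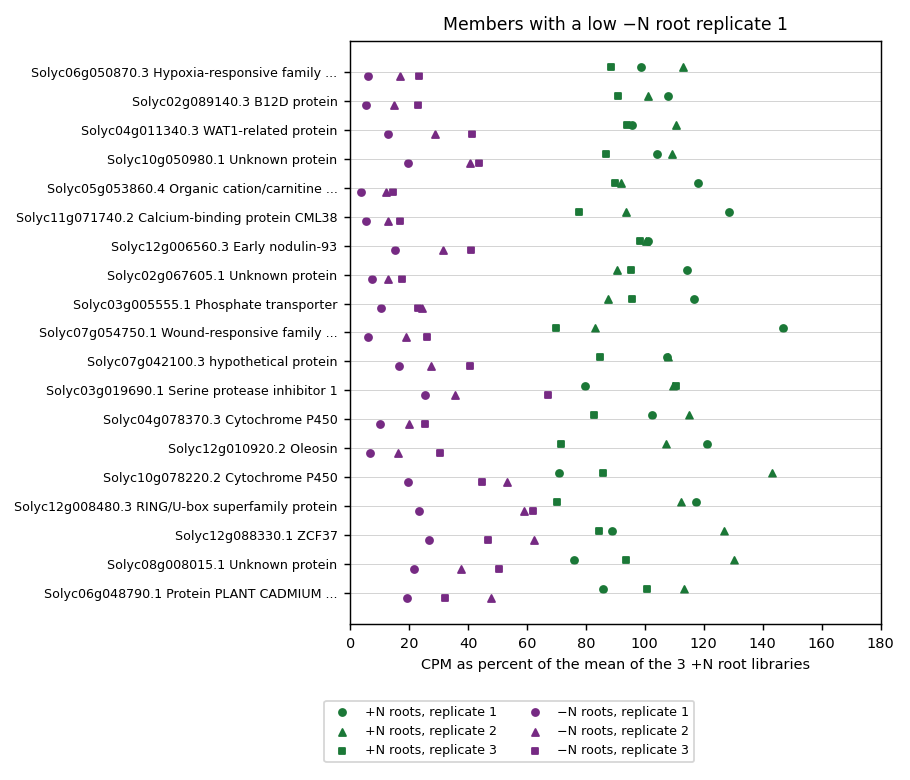
CPM as percent of each gene's own mean over the 3 +N root libraries, for the 19 members whose −N root replicate 1 was under 50% of the mean of −N replicates 2 and 3, with +N root libraries in green and −N root libraries in purple. Replicate 1 of the −N roots (purple circle) lies left of the other −N libraries in every row. The −N libraries lie left of all +N libraries, as the choice of genes requires.

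In shoots, the limit of 0.5 CPM on both groups is part of how the genes were chosen and caps any difference between +N and −N, so the shoot values are given as a description without a test. Of the 185 members, 45 had no read in any of the 6 shoot libraries, where 3 reads over the 6 libraries, the limit that a count of 0 allows, would be 0.0245 CPM. Another 30 had 1 to 3 reads in all. The most were seen for the RPM1-interacting protein 4-like Solyc02g093670.3, with 26 reads over +N shoots and 32 over −N shoots. It was followed by the germin Solyc11g006730.1 (24 and 25), the glycoprotein Solyc12g044710.1 (17 and 30), the transposon-related Solyc09g090875.1 (21 and 25) and the extensin Solyc12g100080.1 (25 and 20). The summed shoot CPM of the members was 18.8 ± 1.13 in +N shoots and 17.53 ± 1.95 in −N shoots (SD, n = 3 each), a difference of 1.32 CPM, and with TMM scaling over the shoot libraries the difference was 5.02 CPM. With shoot counts under 3 set to 3, the pooled level of a member in +N roots was 124 times that in +N shoots in the median, and 7.70 times in the member with the smallest difference.

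No member passed the filter on low counts in the edgeR fit of the shoots, so 0 of 185 were tested and 0 called, at an unadjusted p under 0.05 as well, and DESeq2 on the same genes likewise called 0. Over all genes tested in shoots, 13.4% were called higher and 7.62% lower in +N. When every gene with at least 1 read was kept, 140 members were tested, of which edgeR called 5 higher and 0 lower in +N shoots, where 17.4% of all genes tested were called in either direction. At an unadjusted p under 0.05 in that edgeR fit, 10 of the 140 members were higher and 1 lower, where 7589 and 7460 of all 25542 genes tested were. Since the choice of genes used the shoot levels, nothing is read from these counts. Of the 5, the cytokinin-type P450 Solyc02g094860.3 had 10, 6 and 11 reads in +N shoots, against 1, 1 and 1 in −N shoots. The self-incompatibility S1 family gene Solyc12g098110.1 had 7, 5 and 4 reads in +N shoots and none in −N shoots. The others were the extensin Solyc01g097690.2 (11, 7 and 5 reads, against 2, 2 and 0), the C2 domain gene Solyc04g055140.1 (4, 4 and 2 reads, against none) and the MYB factor Solyc05g055030.2 (5, 17 and 4 reads, against 3, 1 and 0), the last resting largely on replicate 2. All 5 were higher in +N in both organs, which the choice of genes required in roots and the calls required in shoots.

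By CPM, all 3 +N shoot libraries lay above all 3 −N shoot libraries for 14 members and below them for 6. Among all 4619 genes with a shoot read and shoot means under 0.5 CPM, 3.98% lay above and 6.15% below. The 6 that ran opposite to the roots included the protein kinase Solyc05g055860.4, with 1, 6 and 4 reads in +N shoots, against 8, 15 and 8 in −N shoots, and the EF-hand gene Solyc10g044700.2, with 2, 2 and 1 reads, against 7, 4 and 6. In replicate 3 of the −N shoots, cell wall and peroxidase members summed to 4.11 CPM, against 0.830 to 2.21 CPM in the other shoot libraries, and 20 of the 35 had a read, against 8 to 11. The part of this library in the shoot values was not tested, and leaving it out gave a summed difference of 2.44 CPM between +N and −N shoots.

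**Figure D4:**
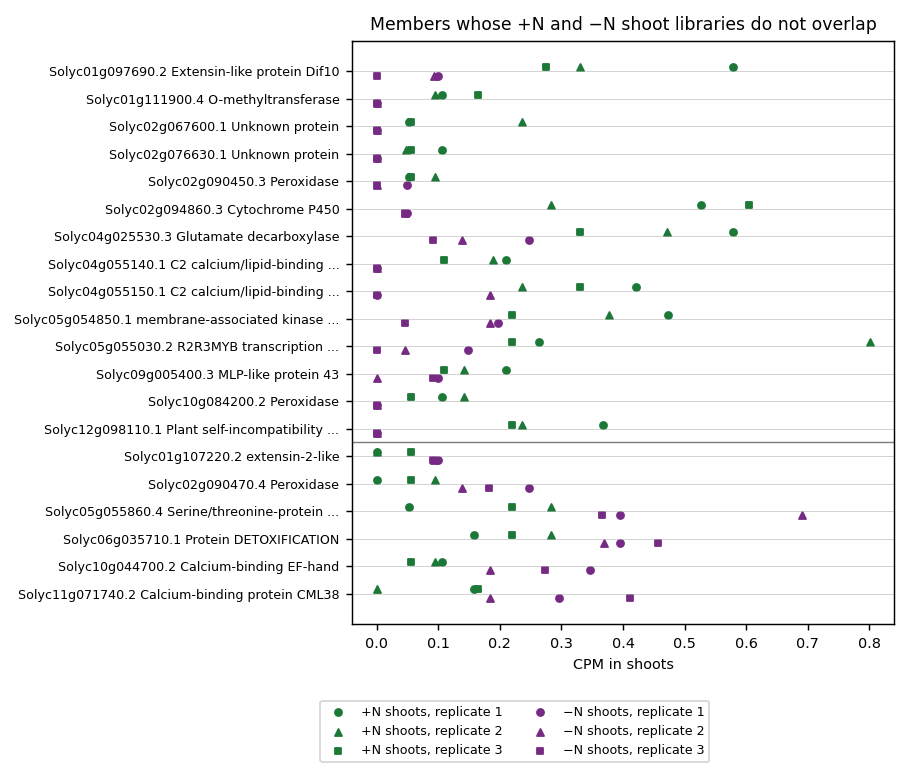
CPM in each +N shoot library (green) and −N shoot library (purple) for the 20 members whose shoot groups do not overlap, with 14 higher in +N above the line and 6 lower in +N below it. All values are under 1 CPM, and the cytochrome P450 Solyc02g094860.3 has 10, 6 and 11 reads in +N shoots, against 1 in each −N shoot library.

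The members are the raised part of a larger set. Of all genes under 0.5 CPM in both shoot groups with at least 2 CPM in either root group, 1108 in number, 187 (16.9%) were higher in +N roots by the limits above, 261 (23.6%) were lower in +N roots by the mirrored limits, and 660 met neither. Among the 17889 genes above the shoot limit with at least 2 CPM in roots, 725 (4.05%) were higher and 1419 (7.93%) lower.

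By identifier order, 59 of the 185 members (31.9%) lay within 5 genes of another member on the same chromosome, in 26 runs. For the 725 genes raised in roots by the same limits that were not root-restricted, 34.6% lay as close to one of their own, and that set is larger. In 12 of the 26 runs all genes fell in the same functional group, leaving out the genes without description and the other described genes. Besides the extensins, C2 domain genes and iron transporters above, runs held the peroxidases Solyc11g007210.3 and Solyc11g007220.2, and 3 genes of the MLP/kirola family on chromosome 9. Chromosome 12 carried 27 members, 1.10% of its genes, and chromosome 11 carried 5, or 0.215%.

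A list of 19 genes of nitrate uptake, assimilation and response was set beside the members, none of which is on it. The genes that the rule leaves out include nitrate transporters named in the study, and the list does not hold these either. The absence of overlap is thus partly set by the choice of genes. Most of the list was named in the study from these samples, so its direction is not independent evidence. In roots 18 of 19 were called higher in +N and 0 lower (edgeR, adjusted p under 0.015 and at least 2-fold), where 6.23% and 6.38% of all genes tested were called. In shoots 19 of 19 were called higher. The nitrate transporter Solyc06g074990.3 stood at 616 CPM in +N roots and 57.6 CPM in −N roots, and the nitrite reductase Solyc10g050890.2, the enzyme that follows nitrate reductase, at 1521 CPM and 28.9 CPM. In +N shoots they were at 1.91 and 104 CPM, against 0.0494 and 15.7 CPM in −N shoots, and thus above the limit that defines the members. Asparagine synthetase Solyc04g055200.3 was the exception in roots, with 82.0 CPM in +N and 88.9 CPM in −N (log2 difference 0.05 on the TMM scale, edgeR adjusted p = 0.47).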

How the data were processed

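The mRNA of tomato roots and shoots was sequenced in 12 libraries, 3 in each of 4 groups. The deposited values are raw read counts per gene from htseq-count, made by the authors after Cutadapt trimming and Tophat2 mapping to the tomato genome (versions and strand setting: not given in the sources used here). CPM were computed from the deposited counts by library totals. Members and gene lists were chosen with earlier results of these data known.

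Roots and shoots were each fitted over all genes with edgeR 4.0.16 in R 4.3.3 (TMM, filterByExpr with a minimum count of 10, quasi-likelihood test, Benjamini-Hochberg adjustment), called at adjusted p under 0.015 and 2-fold, after a check on simulated data. DESeq2 1.42.0, other scalings, no filter, a replicate block and libraries left out in turn were the alternatives. Members were grouped by description. Those named with values were the 4 highest of each group, the 8 highest, the 8 of largest ratio, 3 on each side of each limit and the 5 with most shoot reads. Others were chosen after their values were seen. Intervals cover counting error only. No gene positions or sequences were used here.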

Additional observations from a re-analysis of the deposited data

Results flagged for a closer look

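In 6 of the 140 members with a shoot read, every +N shoot library lay below every −N shoot library, while the choice of genes fixed the opposite order in roots. Among all 4619 genes with a shoot read and shoot means under 0.5 CPM, 6.15% had this shoot order. The count of 6 is therefore not read as a result about the members. The difference between organs was not tested. The shoot difference, +N minus −N in mean CPM, was -0.299 for the protein kinase Solyc05g055860.4, -0.190 for the CML38-type Solyc11g071740.2, -0.187 for the MATE carrier Solyc06g035710.1, -0.183 for the EF-hand gene Solyc10g044700.2, -0.140 for the peroxidase Solyc02g090470.4 and -0.076 for the extensin Solyc01g107220.2. With TMM scaling the order held for 5 of them and was lost for Solyc11g071740.2. All 6 rest on few reads. Groups of 3 libraries were too small for a check on outlying samples.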

How the results depend on the processing

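The number of members was 185 and lay between 136 and 263 under the other limits and TMM scaling, except that a 3-fold limit gave 106. Leaving out 1 library gave 180 to 193. In roots, the choice of genes used the contrast that was fitted, so nothing follows from the number of members called there. That number was 182 to 184 with 1 library left out and 184 with DESeq2. The main fit called 6.23% of all genes tested in roots higher. With the replicate number as a replicate block, calls were 185 members and 18 list genes in roots, and 19 list genes in shoots, the same counts as without it. In shoots 0 members passed the filter in either fit, so none could be called. Same-numbered +N and −N libraries did not deviate together, with correlations from -0.034 to 0.008. In shoots, member calls were 5 with no filter, and 0 to 2 with 1 library left out (Solyc02g094860.3 in each case with a call, and Solyc04g025530.3 without −N replicate 1). Counting only the adjacent gene as a neighbour gave 35 members. Scaling by library totals changed the balance of all calls to 991 higher and 1886 lower in +N roots, against 1311 and 1343, and to 1820 and 3026 in shoots, against 2771 and 1577, because it moves the median gene, by -0.30 on the log2 scale in shoots. Added after seeing the data, TMM scaling in shoots gave 18 members above and 5 below, and leaving out −N shoot replicate 3 gave 18 and 9. Both settings can also change the share of all low-level shoot genes without overlap. That share was not counted under them, so nothing is read from these counts. Near-identical tandem copies can share reads, and levels in CPM are not corrected for gene length. Shoot values rest on few reads per gene.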
